A study of Mus musculus with 6 samples.

Results

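Endothelial cells line the blood vessels of the islet, and the 10 genes described here mark them: Pecam1, Cdh5, Kdr, Flt1, Tek, Plvap, Emcn, Vwf, Selp and Cldn5. They were taken by gene symbol from the annotated expression tables of the series. All 10 were found among 26730 named genes, of 47643 genes counted, and all 10 passed the filter on low counts that left 16072 genes to test. RNA was sequenced from whole islets of wild-type mice (WT) and of mice with a miR-203 transgene restricted to beta cells (TG), all labelled as males aged 10 weeks that had fasted for 12 h. The promoter of the transgene is not given in the sources used here. Each genotype had 3 libraries. One deposited table (the first table) holds WT 1 and WT 2 with TG 1 and TG 2. The second table holds WT 3 and TG 3. Separate animals are not stated for the libraries, and p-values therefore reflect only the spread among these 6 samples, part of which may be technical.

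Islets are supplied by a dense, fenestrated capillary bed, which insulin-secreting cells maintain by releasing VEGF-A. Its receptors sit on the endothelium, together with junction proteins that hold the cells to each other and with surface proteins that control the passage of fluid and leukocytes. P-selectin and von Willebrand factor are held in storage granules of endothelial cells, and P-selectin is displayed mainly on venules, where it slows passing leukocytes. In whole islets, a lower marker level can mean fewer endothelial cells or less RNA per cell, and these cannot be told apart in bulk RNA.

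The libraries held 20176456 to 27482339 counts. Together the 10 markers took 0.0266%, 0.0367% and 0.0267% of all counts in the WT libraries, in order of number, and 0.0342%, 0.0273% and 0.0595% in the TG libraries. The Mir203 gene had 170, 164 and 150 counts in the TG libraries and 0 in WT 2 and WT 3, but the library labelled WT 1 had 39. WT 3 and TG 3 went against the male label, with 25145 and 27240 counts of Xist, an RNA made from the silenced X chromosome of females, against 4 to 13 in the first table. Uty, Kdm5d, Eif2s3y and Ddx3y on the Y chromosome summed to 16 and 1 counts there, against 5463 to 7468 in the first table. Their acinar share, over 10 enzyme genes of the surrounding exocrine tissue, was 0.0114% and 0.0273%, against 0.242% to 0.552% in the first table. Results are therefore given within each table as well as over both, and the part of these differences in them was not tested.

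Selp stood apart from the other markers, with 9, 3 and 9 counts in the WT libraries and 69 to 124 in the TG libraries. Its gene spans chr1:164115264-164150026 on the plus strand of GRCm38, near the gene of the related selectin Sele (E-selectin). The 250 bases before the annotated start are shown for Selp and Sele, whose levels were higher in every TG library, and for Flt1 and Kdr, VEGF receptor genes whose levels overlapped between genotypes. They come from RefSeq (GRCm38.p6) and read 5′ to 3′ toward the start. Capitals mark AGGAAG, a core bound by ETS-family factors, which include the endothelial regulators Erg and Fli1, or its reverse complement CTTCCT.
Selp, chr1:164115014-164115263, plus strand: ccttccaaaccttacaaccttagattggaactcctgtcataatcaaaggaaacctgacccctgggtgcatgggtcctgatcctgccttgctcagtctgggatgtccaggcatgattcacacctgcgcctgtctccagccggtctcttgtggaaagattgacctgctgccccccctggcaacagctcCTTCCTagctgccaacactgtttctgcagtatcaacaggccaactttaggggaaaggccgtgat
Sele, chr1:164047984-164048233, plus strand: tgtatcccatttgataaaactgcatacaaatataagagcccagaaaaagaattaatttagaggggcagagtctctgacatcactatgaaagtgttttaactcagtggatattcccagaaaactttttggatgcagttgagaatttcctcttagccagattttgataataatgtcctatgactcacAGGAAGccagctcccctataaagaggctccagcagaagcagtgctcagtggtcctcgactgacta
Flt1, chr5:147726012-147726261, minus strand: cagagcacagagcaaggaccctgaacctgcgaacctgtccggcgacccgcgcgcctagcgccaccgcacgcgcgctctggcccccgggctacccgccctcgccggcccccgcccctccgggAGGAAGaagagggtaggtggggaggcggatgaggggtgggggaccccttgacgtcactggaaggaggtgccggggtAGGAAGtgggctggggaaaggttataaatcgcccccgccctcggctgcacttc
Kdr, chr5:75978456-75978705, minus strand: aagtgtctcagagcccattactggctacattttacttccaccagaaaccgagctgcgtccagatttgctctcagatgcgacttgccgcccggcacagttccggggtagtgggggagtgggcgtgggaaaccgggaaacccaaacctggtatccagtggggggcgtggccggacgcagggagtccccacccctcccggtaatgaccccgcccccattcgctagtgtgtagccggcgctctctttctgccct
Of the 6 markers with a promoter in the RefSeq table, which were Selp, Emcn, Tek, Kdr, Flt1 and Cldn5, 3 held this motif on either strand within 250 bases: Selp once, Emcn and Flt1 each with 2 matches. All promoters of that length held it in 29.5% of 32851 cases. The GATA-type motif AGATAA, sought on both strands, was in 0 of the 6, against 9.99% of all promoters. These matches describe letters in a window. Both Selp, high in every TG library, and Flt1, whose genotypes overlapped, held AGGAAG.

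The first line below is the mature 3p microRNA of the Mir203 gene, with RefSeq's coordinates, shown because its seed (bases 2 to 8, in capitals) sets which messages it can pair with. The second line is the only match to that seed in the longest annotated 3′ UTR of each of the 10 markers. Its 7 matching bases are in capitals.
mmu-miR-203-3p, chr12:112130927-112130948, plus strand: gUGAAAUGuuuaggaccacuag
Emcn, chr3:137431311-137431333, plus strand: gattgatcCATTTCActgatact
The Emcn match lies in exon 12 of 12, and the longest annotated 3′ UTR was searched for each gene. Other 3′ UTRs of these genes were not searched, and the transcript used had 13 exons for Flt1 and 10 for Vwf. A match occurred in 1 of 10 markers and in 16.1% of 21037 genes with an annotated 3′ UTR. Emcn, which carries it, had 32.8, 26.1 and 14.6 CPM in WT 1 to WT 3 and 14.3, 39.1 and 34.8 CPM in TG 1 to TG 3, where CPM is the count scaled to a common library size (TMM-scaled, per 1e6 counts). Its TG level was low in 1 library, TG 1, and the genotypes overlapped. The transgene is restricted to beta cells, while Emcn marks endothelial cells, and miR-203 was not measured by cell type. These levels therefore cannot show whether the match is used.

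Across all 6 libraries, no marker passed the adjusted threshold of 0.05 in the edgeR quasi-likelihood test with the table as a term. The same test called 0 of all genes (0%), and the smallest adjusted p of any gene was 0.199. At an unadjusted p under 0.05, 3 of the 10 markers were higher in TG (Selp, Vwf and Cldn5), against 9.32% of all genes, and 0 were lower, against 4.81%. The count of higher markers was 3 without WT 1 (against 7.93% of all genes), 4 without WT 2 (7.9%), 3 without TG 1 (5.47%) and 6 without TG 2 (17%). In the first table alone 2 were higher, against 4.22% of all genes, and 1, Kdr, was lower, against 1.12%. The median log2 fold change of the 10 was 0.49, against -0.01 over all genes tested. The median differed by table. In the first table it was 0.14, with 6 of 10 markers higher in TG, against 7750 of 16072 genes. In the second it was 1.33, with 10 of 10 higher in TG 3 than in WT 3, against 49.2% of all genes. Markers of other cell types were often higher in TG 3 too. They were so in 9 of 9 tested acinar, 6 of 6 duct and 3 of 3 red blood cell markers. Pericyte and smooth muscle markers were higher in 8 of 9, macrophage markers in 6 of 8 and platelet markers in 3 of 5. Islet hormones were higher in 3 of 7 and lymphocyte markers in 1 of 3.

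**Figure D1:**
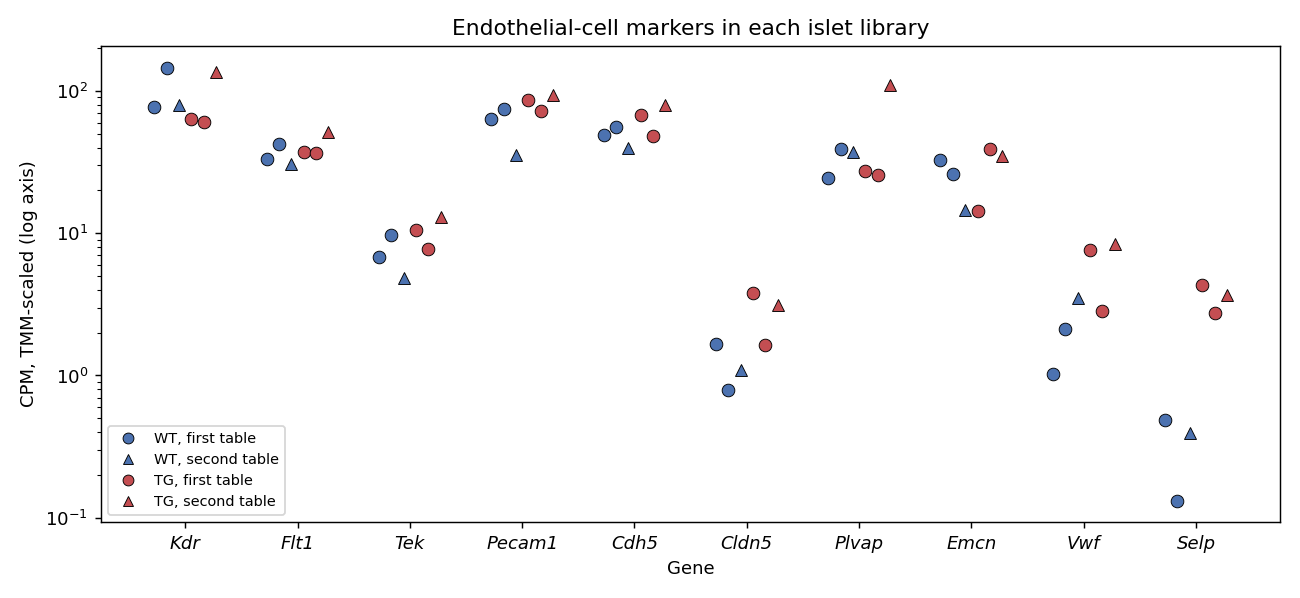
Level of each endothelial marker gene in the 6 islet libraries, in CPM on a log axis. Each point is 1 library, blue for WT and red for TG, with circles for the first table and triangles for the second. The Selp points of the 3 TG libraries lie at 2.74 to 4.31 CPM, all above the WT points at 0.132 to 0.486 CPM, while for each of the other 9 markers the WT and TG points overlap.

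On a scale per gene length, the markers ordered alike in most libraries. By the authors' deposited FPKM, the median over the first table's libraries was highest for Plvap (12.6), Cdh5 (12.5) and Pecam1 (11.3). Kdr (7.38), Emcn (5.18), Flt1 (2.62), Tek (1.76) and Cldn5 (1.11) followed, and Selp (0.349) and Vwf (0.146) were lowest. Ranges over the first table's 4 libraries overlapped between all neighbours in this order except Flt1 and Tek. Plvap ranked among the first 3 in every library. Vwf was last in 4 of 6 libraries. Selp was last in the others, WT 2 and WT 3.

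Kdr encodes VEGF receptor 2, the main receptor through which VEGF-A acts on endothelial cells. It had 76.7 and 146 CPM in WT 1 and WT 2, and 63.3 and 60.7 CPM in TG 1 and TG 2. In the second table the order was the opposite, with 79.3 CPM in WT 3 and 136 CPM in TG 3. Both TG libraries of the first table lay below both WT libraries, and TG 3 lay above WT 3 and below WT 2. The log2 fold change was -0.84 (SE 0.32, unadjusted p = 0.0372, edgeR) in the first table, 0.78 between TG 3 and WT 3, and -0.32 (SE 0.39, adjusted p = 0.749) over both. The difference between the tables' TG effects, taken from the table-by-genotype interaction, was 1.62 (SE 0.55, unadjusted p = 0.0256, adjusted p = 0.99985). Lower TG levels in the first table with a higher one in the second were found in 1 of 10 markers, Kdr, and in 3.78% of all genes.

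Flt1 encodes VEGF receptor 1, a high-affinity receptor that also limits the VEGF-A available to Kdr. It had 33.4, 42.4 and 30.6 CPM in the WT libraries and 37.2, 36.9 and 51.8 CPM in the TG libraries. TG 3 was the highest library, and the first table's TG libraries lay between its WT libraries. The log2 fold change over both tables was 0.23 (SE 0.20, adjusted p = 0.638, edgeR), and -0.03 (SE 0.19) in the first table alone.

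Tek encodes TIE2, the receptor of the angiopoietins, which steady mature vessels. Its levels were 6.80, 9.68 and 4.86 CPM in the WT libraries and 10.5, 7.70 and 13.0 CPM in the TG libraries, in order of number. The groups overlapped only through WT 2 and TG 2. The edgeR log2 fold change was 0.56 (SE 0.33, adjusted p = 0.487), with 0.14 in the first table and 1.42 in the second.

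The partner receptors Nrp1, Nrp2, Ptprb, Flt4 and Tie1 had a negative log2 fold change in the first table's fit (median -0.31) and a positive one between TG 3 and WT 3 (median 0.89). Nrp1 and Tie1, 2 of the 5, had both TG libraries of the first table below both its WT libraries and TG 3 above WT 3, as Kdr did, against 3.78% of all genes. None of the 5 had an unadjusted p under 0.05 over both tables. Nrp1, a co-receptor for VEGF-A, had 21.8, 26.3 and 19.1 CPM in WT and 19.1, 20.1 and 30.9 CPM in TG.

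Of the ligands, Vegfa, the main growth factor of the islet capillaries, had 536, 470 and 770 CPM in WT 1 to WT 3 and 490, 495 and 612 CPM in TG 1 to TG 3, a log2 fold change of -0.13 (SE 0.16, adjusted p = 0.755, edgeR). The lowest TG library lay above the lowest WT library, and both libraries of the second table were above those of the first. Vegfb, which binds Flt1 and not Kdr, lay below the control libraries of the same table in every TG library, with 33.9, 28.1 and 53.8 CPM against 20.7, 26.9 and 30.3 CPM, a log2 fold change of -0.53 (SE 0.18, unadjusted p = 0.0206, adjusted p = 0.273). Pgf, placental growth factor, also binds Flt1 and not Kdr. It had 7.50, 9.59 and 7.66 CPM in WT and 25.8, 13.6 and 23.2 CPM in TG, with a log2 fold change of 1.34 (SE 0.28, unadjusted p = 0.00213, adjusted p = 0.199). Angpt2, the angiopoietin that endothelial cells release, had 61.6, 68.9 and 33.1 CPM in WT and 25.5, 61.0 and 43.9 CPM in TG. Its TG 1 and TG 2 levels were thus below those of WT 1 and WT 2, and TG 3 was above WT 3, the order seen for Kdr, in 1 of the 6 ligand genes tested. In all, 6 of 7 listed ligand genes were tested. At an unadjusted p under 0.05 2 were higher in TG, Pgf and the lymphatic growth factor Vegfc, against 9.32% of all genes, and 1, Vegfb, was lower, against 4.81%. Vegfc was named after its values were seen, with 1.36 to 1.67 CPM in WT and 2.50 to 5.11 CPM in TG.

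Among the junction proteins, Pecam1 and Cdh5 are found at the contacts of nearly all endothelial cells. Pecam1 had 63.5, 75.1 and 35.5 CPM in WT 1 to WT 3 and 87.0, 72.8 and 93.5 CPM in TG 1 to TG 3. WT 3 was the lowest library and TG 3 the highest, and in the first table TG 2 lay between the WT libraries. The edgeR log2 fold change over both tables was 0.60 (SE 0.26, unadjusted p = 0.0563, adjusted p = 0.365). It was 0.21 in the first table and 1.40 in the second, an interaction of 1.19 (SE 0.33, unadjusted p = 0.0121, adjusted p = 0.99985).

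Cdh5, VE-cadherin, which forms the adherens junctions of endothelium, had 49.1, 56.1 and 39.8 CPM in WT and 67.3, 47.9 and 79.4 CPM in TG. TG 2 lay below both WT libraries of its table, and TG 1 and TG 3 lay above theirs. The log2 fold change was 0.42 (SE 0.23, adjusted p = 0.448, edgeR). An antisense gene, Gm29682, overlaps Cdh5, and without a stated strand setting their reads cannot be told apart.

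Cldn5 forms the tight junctions of endothelium and is far less abundant in fenestrated vessels than in those of the brain. It had 1.67, 0.792 and 1.09 CPM in the WT libraries, from 18 to 31 counts, and 3.79, 1.63 and 3.11 CPM in the TG libraries, from 41 to 109 counts. TG 2 lay just below WT 1, and the other TG libraries lay above all WT libraries. The log2 fold change was 1.27 (SE 0.45, unadjusted p = 0.0264, adjusted p = 0.289, edgeR), with 1.15 in the first table and 1.51 in the second.

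Plvap, which forms the diaphragms of fenestrae, had the largest difference between the tables of the 10 markers. Its levels in the first table were 24.5 and 38.9 CPM in WT 1 and WT 2 and 27.5 and 25.8 CPM in TG 1 and TG 2, so that both TG libraries lay between the WT libraries. In the second table it had 37.1 CPM in WT 3 (95% exact Poisson interval 34.6 to 39.7) and 110 CPM in TG 3 (106 to 114), where the intervals cover counting error only. The log2 fold change was -0.25 (SE 0.26) in the first table and 1.57 in the second, and the interaction was 1.82 (SE 0.44, unadjusted p = 0.00658, adjusted p = 0.99985, edgeR). Gtpbp3 overlaps Plvap on the opposite strand. It had 818 counts in WT 3 and 750 in TG 3, while Plvap had 847 and 2655.

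Emcn, endomucin, a sialomucin of capillary and venous endothelium, did not follow the other markers in the first table, where its lowest level was in TG 1 and its highest in TG 2. Its log2 fold change was 0.31 (SE 0.44, adjusted p = 0.781, edgeR) over both tables, -0.14 in the first and 1.25 in the second. The log2 CPM of Emcn and of Kdr correlated with the mean of the other 9 markers at Pearson r = 0.114 and 0.117 over the 6 libraries, against 0.892 for Cdh5, 0.828 for Tek, 0.791 for Flt1 and 0.733 for Pecam1. These r describe 6 libraries that share tables and depths, and are given without a test. Markers that varied most between libraries, such as Selp, weigh most in the mean of the others.

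Over the 10 markers, 3 had an interaction at an unadjusted p under 0.05 with the larger TG effect in the second table (Pecam1, Kdr and Plvap), against 1.53% of all genes. That count was 3 without WT 1 (against 0.982% of all genes), 1 without WT 2 (0.937%), 7 without TG 1 (7.66%) and 6 without TG 2 (3.29%). None passed the adjusted threshold, and neither did any other gene (0%). TG 3 was at least 2-fold above WT 3 for 7 of 10 markers, against 12.2% of all genes. Cdh5 at 1.996-fold, just under that mark, Kdr at 1.71-fold and Flt1 at 1.69-fold were the others. With 1 library of each genotype in that table, this ratio has no replicate check.

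**Figure D2:**
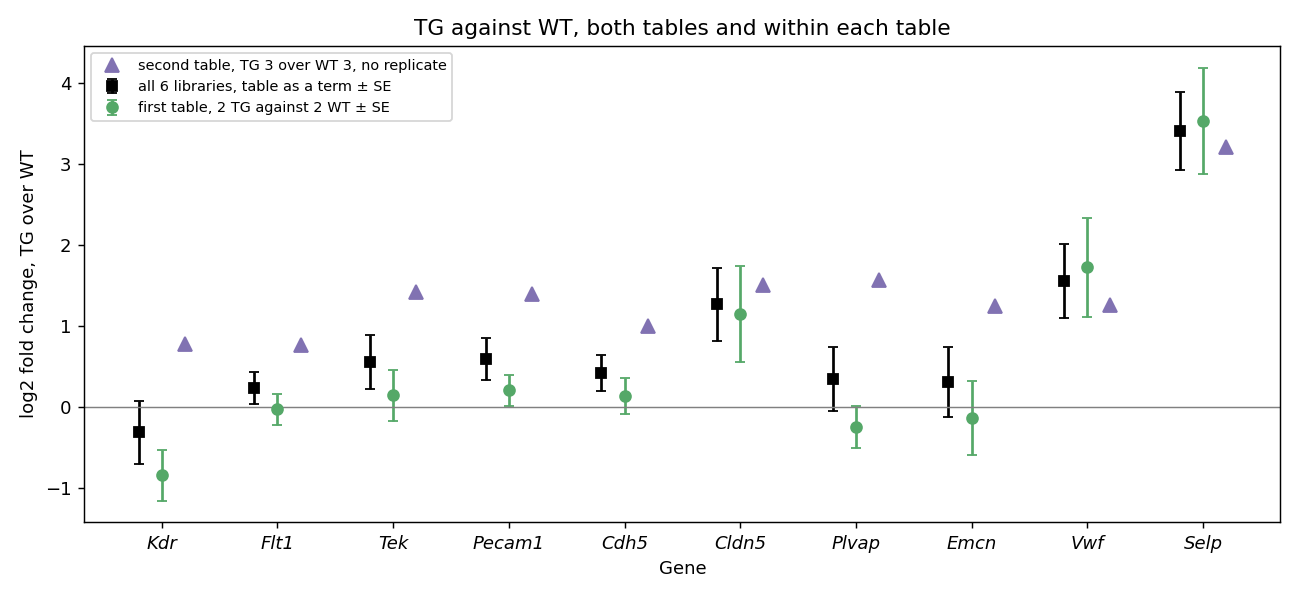
Log2 fold change of TG over WT for each endothelial marker gene. Squares are the fit over all 6 libraries with the table as a term and circles the fit to the first table, both with SE, and triangles are the ratio of TG 3 to WT 3, which has no error. All 10 triangles lie above 0, whereas the first table's values run from -0.84 for Kdr to 3.54 for Selp.

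Each TG library lay above the controls of the same table for 2 of the 10 markers, Selp and Vwf. Of all genes, 13% met that condition, and 13.4% met its opposite, which no marker did. Selp had 0.486 CPM in WT 1 (95% exact Poisson interval 0.222 to 0.922), 0.132 in WT 2 (0.0272 to 0.386) and 0.394 in WT 3 (0.180 to 0.748). In TG 1 it had 4.31 CPM (3.59 to 5.14), in TG 2 2.74 (2.13 to 3.47) and in TG 3 3.65 (2.93 to 4.50). The lowest TG interval lay above the highest WT interval. Means were 0.337 ± 0.184 CPM in WT and 3.57 ± 0.790 CPM in TG (SD, n = 3 each), a 10.6-fold ratio.

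The log2 fold change of Selp was 3.42 (SE 0.48, edgeR, unadjusted p = 0.000217, adjusted p = 0.199), the rank 5 of all genes by p. It was 3.54 in the first table and 3.21 in the second, with an interaction of -0.34 (SE 1.09, unadjusted p = 0.764). Without WT 1, the control library with Mir203 reads, it was 3.88. Leaving out each library in turn gave 3.00 to 3.88. The call depended on the tool: DESeq2 gave Selp an adjusted p of 1.32e-06 and edgeR without TG 2 gave 0.00564. A pair of genes on the strand opposite to Selp, Gm16587 and Gm16548, had 0 or 1 count in each library.

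Vwf, the multimeric protein that tethers platelets, had 1.03, 2.11 and 3.50 CPM in WT 1 to WT 3 and 7.62, 2.82 and 8.39 CPM in TG 1 to TG 3. TG 2 lay below WT 3, a library of the other table, and above both WT libraries of its own. Its margin over WT 2 was small. The 95% exact Poisson intervals overlapped, at 1.56 to 2.80 CPM in WT 2 and 2.20 to 3.55 CPM in TG 2. The edgeR log2 fold change was 1.56 (SE 0.46, unadjusted p = 0.0118, adjusted p = 0.244), with 1.72 in the first table and 1.26 in the second. DESeq2 called Vwf too, at an adjusted p of 0.0280.

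DESeq2 therefore called 2 of the 10 markers higher in TG, where it called 4.07% of the genes to which it gave an adjusted p. Without TG 2, edgeR called 3 (Selp, Vwf and Cldn5), against 8.82% of its genes. Without the filter on low counts it called 4, those 3 and Pecam1, against 4.37% of 29725 genes. No marker was called lower over both tables under any of these settings.

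Other genes of leukocyte capture were compared with Selp. Sele, which activated endothelium makes, had 0.216, 0.264 and 0.263 CPM in WT and 2.12, 1.03 and 1.49 CPM in TG, from 4 to 6 counts against 26 to 61. All TG libraries lay above all WT libraries, with a log2 fold change of 2.62 (SE 0.44, unadjusted p = 0.000663, adjusted p = 0.199, edgeR). Vcam1, which binds leukocyte integrins, had 2.70, 2.20 and 2.54 CPM in WT and 7.48, 3.89 and 4.98 CPM in TG, without overlap (log2 fold change 1.13, SE 0.32, unadjusted p = 0.00987, adjusted p = 0.238). Icam1 overlapped widely, from 14.8 to 51.7 CPM in WT and from 18.8 to 45.7 CPM in TG. Selplg, the leukocyte ligand of P-selectin, was highest in TG 3 at 5.77 CPM and ranged from 0.754 to 1.78 CPM elsewhere. Of the 4 tested genes of this list, Sele and Vcam1 were higher at an unadjusted p under 0.05, against 9.32% of all genes.

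A neighbouring gene, F5, did not follow Selp in every library. F5, coagulation factor V, had 2.81, 3.65 and 3.06 CPM in WT and 16.2, 2.74 and 13.7 CPM in TG. Its TG 2 level thus lay below every WT library, unlike that of Selp, while TG 1 and TG 3 lay above all of them. The log2 fold change of F5 was 1.75 (SE 0.61, unadjusted p = 0.0240, adjusted p = 0.283, edgeR). This neighbour was looked at after the values of Selp had been seen.

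Selp was also higher in TG when set against the abundant endothelial markers. The counts of Pecam1, Cdh5, Kdr, Flt1, Tek, Plvap and Emcn were summed as a measure of endothelial RNA, which came to 287, 394 and 242 CPM in WT and 307, 291 and 518 CPM in TG. Per 1000 of these counts, Selp had 1.69, 0.335 and 1.63 counts in WT 1 to WT 3 and 14.0, 9.41 and 7.05 in TG 1 to TG 3. Sele had 0.753, 0.670 and 1.09 against 6.91, 3.55 and 2.88. For both genes, the lowest TG library lay above the highest WT library. Vwf had 3.58, 5.36 and 14.5 in WT and 24.8, 9.68 and 16.2 in TG, so that in the second table the genotypes were close once set against endothelial RNA. Cldn5 had 5.83, 2.01 and 4.53 in WT and 12.3, 5.59 and 6.0 in TG, and was likewise close in the second table. Vcam1 had 9.41, 5.58 and 10.5 in WT and 24.3, 13.4 and 9.61 in TG. Its TG libraries thus lay above both WT libraries in the first table, but not in the second.

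**Figure D3:**
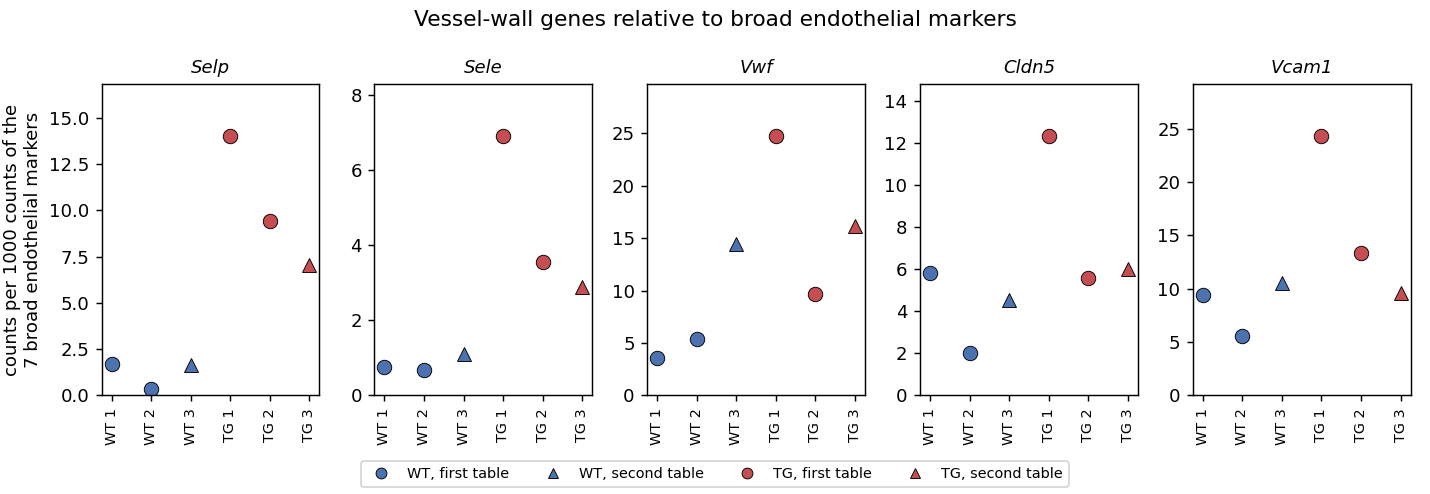
Counts of Selp, Sele, Vwf, Cldn5 and Vcam1 per 1000 summed counts of the 7 broad endothelial markers, in each library, on linear axes from 0. Blue is WT and red is TG, with circles for the first table and triangles for the second. For Selp and Sele the 3 TG points lie above the 3 WT points, from 7.05 against at most 1.69 for Selp, whereas WT 3 and TG 3 lie close together for Vwf, Cldn5 and Vcam1.

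Platelets also hold P-selectin and von Willebrand factor, so their markers were read beside Selp and Vwf. Of 9 platelet and megakaryocyte genes, Treml1 had 0 counts in every library, and Ppbp and Gp9 had 0 to 5. Pf4 had 5, 24 and 5 counts in WT and 131, 21 and 7 in TG. Its log2 fold change was 1.65 (SE 0.83, unadjusted p = 0.0879, adjusted p = 0.415, edgeR). By CPM, TG 1 lay above both WT libraries of its table and TG 2 lay between them. TG 3 lay just above WT 3 (0.291 against 0.219 CPM). Itga2b and Gp1ba had log2 fold changes of -0.25 and 0.00. Gp5 was below the controls of its table in each TG library, with 1.84, 1.67 and 2.98 CPM in WT and 0.869, 1.59 and 1.91 CPM in TG (log2 fold change -0.56, SE 0.33, unadjusted p = 0.133, adjusted p = 0.481, edgeR). Gp1bb, which overlaps Sept5 on the same strand, had a log2 fold change of 2.0 (unadjusted p = 0.00381, adjusted p = 0.200, edgeR), from 1.06 to 2.63 CPM in WT and from 3.14 to 20.3 CPM in TG. The summed level of the list was 6.48 to 10.7 CPM in WT and 7.62 to 27.3 CPM in TG.

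Other endothelial genes, listed apart from the 10 markers, also differed by table. Of 26 tested, 23 had a positive log2 fold change in the edgeR fit (median 0.29), against 7723 of all 16072 genes. At an unadjusted p under 0.05, 5 of the 26 were higher in TG, against 9.32% of all genes. By table, 13 of 26 were higher in TG in the first (median 0.01), against 7750 of 16072 genes. In the second, 26 of 26 were higher (median 0.98), where 49.2% of all genes were higher in TG 3. An interaction at an unadjusted p under 0.05, with the larger TG effect in the second table, was found in 9, against 1.53% of all genes. Eng, endoglin, a TGF-beta co-receptor, had 48.5, 83.4 and 54.0 CPM in WT and 41.4, 39.0 and 134 CPM in TG. Adgrf5, an adhesion receptor, had 42.9, 43.9 and 30.5 CPM in WT and 112, 42.2 and 107 CPM in TG (log2 fold change 1.15, unadjusted p = 0.0195, adjusted p = 0.267). Adgrl4 and S1pr1, the receptor of sphingosine-1-phosphate, had log2 fold changes of 0.19 and 0.40.

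Transcription factors of the endothelial lineage had a positive log2 fold change in 7 of 8 cases (median 0.36), against 7723 of all 16072 genes. At an unadjusted p under 0.05, 2 of the 8, Sox7 and Sox17, were higher, against 9.32% of all genes. All 8 factors were higher in TG 3 than in WT 3, as were 49.2% of all genes. Sox17, an arterial regulator, had 2.16, 3.87 and 4.99 CPM in WT and 7.23, 3.65 and 13.9 CPM in TG. Erg and Lmo2 had log2 fold changes of 0.23 and 0.15. Of the arterial and venous genes, 5 were tested and all had positive log2 fold changes (median 0.42), against 7723 of all 16072 genes. Efnb2 was at 0.40, Ephb4 at 0.54, Gja4 at 0.38 and Hey1 at 1.0 (unadjusted p = 0.0307, edgeR).

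Lymphatic genes had values in both directions. Lyve1, a hyaluronan receptor also found on some macrophages, lay below the controls of its table in each TG library, with 25.4, 21.4 and 14.0 CPM in WT and 10.6, 18.3 and 9.17 CPM in TG (log2 fold change -0.67, unadjusted p = 0.0243, adjusted p = 0.283, edgeR). Pdpn, which epithelial and stromal cells also make, was higher in all, from 0.792 to 2.11 CPM in WT against 2.70 to 14.0 CPM in TG. Prox1, which islet cells express too, was level, at 0.01.

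Cell types other than endothelium also differed between the libraries, and their part in the marker values was not tested. Pericyte and smooth muscle markers, 9 tested, summed to 31.5, 87.9 and 46.0 CPM in WT and 81.3, 34.7 and 91.4 CPM in TG. TG 3, WT 2 and TG 1 were highest, in the same order as in the endothelial sum. In the endothelial sum TG 1 lay close to TG 2 (307 against 291 CPM). Macrophage markers, 8 tested, summed to 79.7, 188 and 87.2 CPM in WT and 172, 104 and 203.2 CPM in TG. Here too TG 3, WT 2 and TG 1 were highest, in that order. Among the macrophage markers, C1qa, a complement subunit, had 48.4, 67.1 and 45.1 CPM in WT and 113, 67.0 and 148 CPM in TG. Cd68, a lysosomal protein of macrophages, lay below the controls of its table in each TG library, with 14.95, 30.1 and 18.6 CPM in WT and 10.0, 9.76 and 9.84 CPM in TG (log2 fold change -1.10, unadjusted p = 0.00531, adjusted p = 0.216, edgeR). Red blood cell markers summed to 1.05 to 5.06 CPM in WT and 2.42 to 5.74 CPM in TG, and Hba-a1 and Hbb-bs reached 2.47 CPM at most. Lymphocyte markers summed to 4.97 to 8.84 CPM in WT and 2.19 to 4.94 CPM in TG, and 5 of 8 were too low to test. Duct markers were higher in every TG library, with 652 to 1017 CPM in WT and 1462 to 1923 CPM in TG, and 6 of 6 tested were higher in TG 3 than in WT 3, against 49.2% of all genes. Acinar markers in TG 3 were 245 CPM against 105 CPM in WT 3, both far below the first table. The islet hormone genes took 15.8% to 24.2% of counts in WT and 12.2% to 24.0% in TG, and were lowest in TG 1 and TG 3, the TG libraries with the most Selp.

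**Figure D4:**
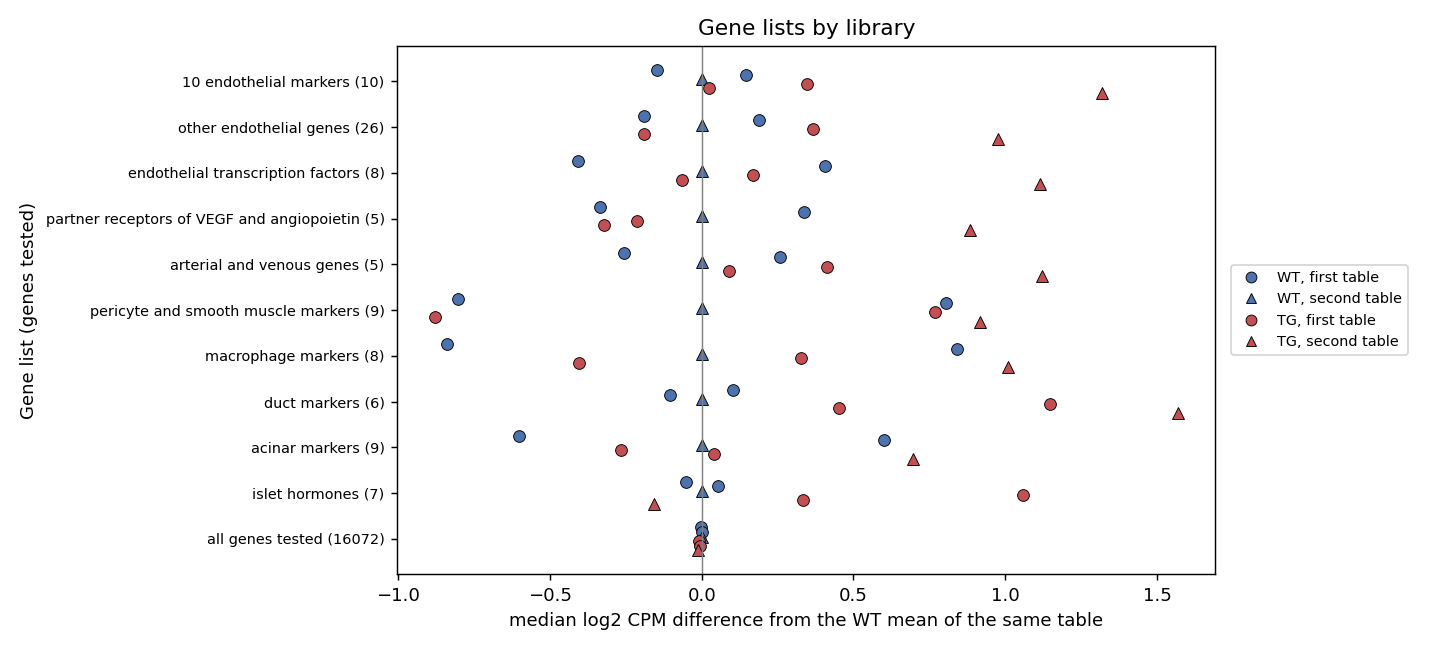
Median over each gene list of the log2 CPM difference from the mean of the WT libraries in the same table, with the number of genes tested in brackets. Each point is 1 library, blue for WT and red for TG, circles for the first table and triangles for the second, where WT 3 is 0 by construction. For the 10 endothelial markers TG 3 lies at 1.32, while TG 1 at 0.35 and TG 2 at 0.02 lie nearer to WT 1 and WT 2 at -0.15 and 0.15.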

How the data were processed

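RNA of mouse islets was sequenced in 6 libraries, 3 of each genotype. The submitters' processing notes name CASAVA 1.8, HISAT2 and GRCm38 (mm10), while the counting tool and whether it used strand are not given in the sources read here. The authors deposited raw counts per gene, which were whole numbers and were used for every test, and a normalized signal, which was the raw count times 1 factor per library and was only checked. They also deposited FPKM per gene, which the file headers pair with gene symbols and which served for symbols and for the order of levels. Library totals set the precision.

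Counts of both tables were joined by gene ID and given to edgeR 4.0.16 (R 4.3.3) for a quasi-likelihood F-test with terms for table and genotype, after filterByExpr on genotype and TMM scaling. SE was derived as |log2 fold change|/√F. P-values were adjusted over all 16072 genes by Benjamini-Hochberg, with a threshold of 0.05. The interaction of table and genotype was tested likewise. Per-library log2 CPM used a prior count of 2, and the ratio of TG 3 to WT 3 used none. Poisson intervals are at 95%. The scripts were tested on simulated data. Alternatives were DESeq2 1.42.0, limma-voom 3.58.1, other scaling, no filter, no table term, the first table alone and each library left out.

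The members and the gene lists were chosen with earlier results of these data known. The rule named all members, the 4 most abundant genes of each list, the genes most like the members in profile, and Mir203, Xist and Y-linked genes as checks. For lists of other cell types, mainly summed levels and counts are given. Seeds and motifs were matched by exact letters, and 3′ UTRs came from GENCODE M21 (GRCm38).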

Additional observations from a re-analysis of the deposited data

Results flagged for a closer look

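Kdr and 8 other genes of the endothelial lists were picked because TG 1 and TG 2 lay below WT 1 and WT 2 while TG 3 lay above WT 3. This order itself makes the TG effect larger in the second table, so the p-values below are no separate support. It was met by 1 of 10 markers, 5 of 26 other endothelial genes and 1 of 6 tested ligands, against 3.78% of all genes. It was also met by 2 of 5 partner receptors and 1 of 4 tested leukocyte capture genes, with Tie1 in 2 lists. The difference of log2 fold changes was 1.62 for Kdr (unadjusted p = 0.0256). The other 8 were Eng (2.02, unadjusted p = 0.00632), Tie1 (1.40, 0.0181), Clec14a (2.17, 0.0495), Mmrn2 (1.11, 0.0324), Cd93 (1.22, 0.00721), Nrp1 (0.99, 0.0295), Angpt2 (1.0, 0.200) and the leukocyte gene Selplg (3.06, 0.00938). Genes without this order also had large differences, such as Plvap (1.82). All values came from the edgeR interaction of table and genotype, with an adjusted p of 0.99985 each, and the second table has 1 library of each genotype. The genes searched were the 10 markers and the lists of other endothelial genes, endothelial transcription factors, ligands, partner receptors, leukocyte capture, arterial and venous, and lymphatic genes.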

How the results depend on the processing

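Over both tables, edgeR called 0 genes, while 1498 higher and 773 lower ones had an unadjusted p under 0.05. With DESeq2 the number called was 752 (616 higher, 136 lower), with edgeR without the low-count filter it was 1672 (1300 higher, 372 lower), and leaving out each library in turn gave 0 to 2188, the highest without TG 2 (1461 higher, 727 lower). Members called were 0, then 2 with DESeq2, 4 without the filter and 0 to 3 over left-out libraries. The bias-adjusted quasi-likelihood fit without the filter, added after seeing the data, called 0 members. The interaction called 2 members without the filter. In the first table alone, members called were 0, then 1 with DESeq2 and 3 without the filter (2 higher, 1 lower). For the members called by the interaction and in the first table, the share of all genes called was not computed. Those counts therefore cannot be judged against it. The cause of the differences between settings was not tested. With the first table only, the sign turned for Flt1 (-0.0315), Plvap (-0.25) and Emcn (-0.14), and Eng turned to 0.20 without the table term. Over left-out libraries the ranges spanned 0 for Kdr (-0.85 to 0.15, above 0 without WT 2), Flt1 (-0.0367 to 0.41), Plvap (-0.26 to 0.73), Emcn (-0.15 to 0.77) and Eng (-0.72 to 0.38). Without WT 3 or TG 3 the table term takes up the lone library, so those fits rest on the first table. Every other member kept its direction. The members' median ran from 0.13 (without WT 3) to 0.75 (without WT 2). No paired analysis was possible because the replicate numbers here only name samples and the labels carry none shared by the genotypes. Depth limits Selp, Sele and Cldn5 in WT, with 3 to 31 counts.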

Other observations

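Genes whose level followed the mean of the 10 endothelial markers most closely over the 6 libraries were sought among 14126 genes with a mean of at least 1 CPM, without regard to function. The mean was taken over log2 CPM without scaling, so markers that varied most between libraries, such as Selp, weigh most in it. The highest Pearson r were those of Dtx4 (0.994), Bambi (0.993), Kcnn2 (0.992), Me3 (0.9904), Hs6st1 (0.988), Cxcl12 (0.987), Fam105a (0.987), Col8a2 (0.986), 1110017D15Rik (0.985) and Sh3tc1 (0.985). With each table centred on its own mean, Bcl2l14 (0.999), Sema6c, Mnda, Hs6st1, Dtx4, Cd200, Lrp3, Cyp39a1, Camsap3 and Abtb1 (0.995) came first, of which Hs6st1 and Dtx4 were in both sets. None of these genes was in the endothelial list or in any other list used here. With 6 libraries that share tables, high r arise among many genes, and the values are a description.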
